A study of Arabidopsis thaliana with 8 samples.

Results

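The brassinosteroid genes described here are the 6 genes of the BES1 family (BES1, BZR1, BEH1, BEH2, BEH3 and BEH4), the receptor gene BRI1 and the kinase gene BIN2. They are 8 of 27444 protein-coding genes. The windows assigned to them were those with a centre in the gene or within 2000 bp of either end. This rule found 63 of the 116684 windows in the deposited lists. Overlapping windows of all lists were joined into regions, and the 8 genes held 20 of 39850 regions. The genes were chosen by the windows of these same lists, since BES1 holds several regions of every protein, so the counts at these genes are a description and no test was made.

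The lists come from ampDAP-seq, in which a tagged protein is mixed with amplified genomic DNA, purified with the DNA it holds, and that DNA is sequenced. ALOG proteins are transcription factors found in land plants. Each of 7 such proteins has 1 list of windows: TMF, G1, the LSH proteins LSH1, LSH2 and LSH3, and the LOS proteins LOS1 and LOS2. All were made in vitro and given the same material, genomic DNA from 2-week-old Arabidopsis thaliana seedlings. An Input sample of the same DNA was not analysed here. As background, the LSH proteins belong to Arabidopsis itself, the LOS proteins to the liverwort Marchantia, TMF to tomato and G1 to rice. Amplified DNA has lost its methylation and its chromatin, so a window says what a protein retained from bare DNA and not what it occupies in a plant. The series' design text says that 3 replicates were made and that peaks found in all of them were kept, so the variation among replicates was not available and depth is unknown. Windows are 200 bp wide and carry no height or p-value.

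Brassinosteroids are plant steroid hormones that promote cell elongation and growth. The hormone binds the receptor kinase BRI1 at the cell surface, which acts with the co-receptor BAK1. Without hormone, the GSK3-like kinase BIN2 phosphorylates the transcription factors BES1 and BZR1 and keeps them inactive; with hormone, BIN2 is switched off and the dephosphorylated factors act on genes in the nucleus. BEH1, BEH2, BEH3 and BEH4 are close homologs of BES1 and BZR1.

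The 8 genes differed widely in how many windows they held, and BES1 stood far above the others. BES1 held 26 windows in 4 regions, which is 41.3% of all windows at the 8 genes. BZR1 held 12 windows, BEH3 11, BEH2 and BRI1 5 each, BIN2 3, BEH1 1 and BEH4 none. The median over the 8 genes was 5.0 windows, against 6.0 over all protein-coding genes. Windows of all 7 proteins were found at 3 of the 8 genes, BES1, BZR1 and BEH3, against 22.6% of all protein-coding genes. A window of any protein was found at 7 of the 8, against 86.6%. Only BES1 and BEH3 among the 8 had a region that all 7 proteins share, against 16.8% of protein-coding genes.

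**Figure D1:**
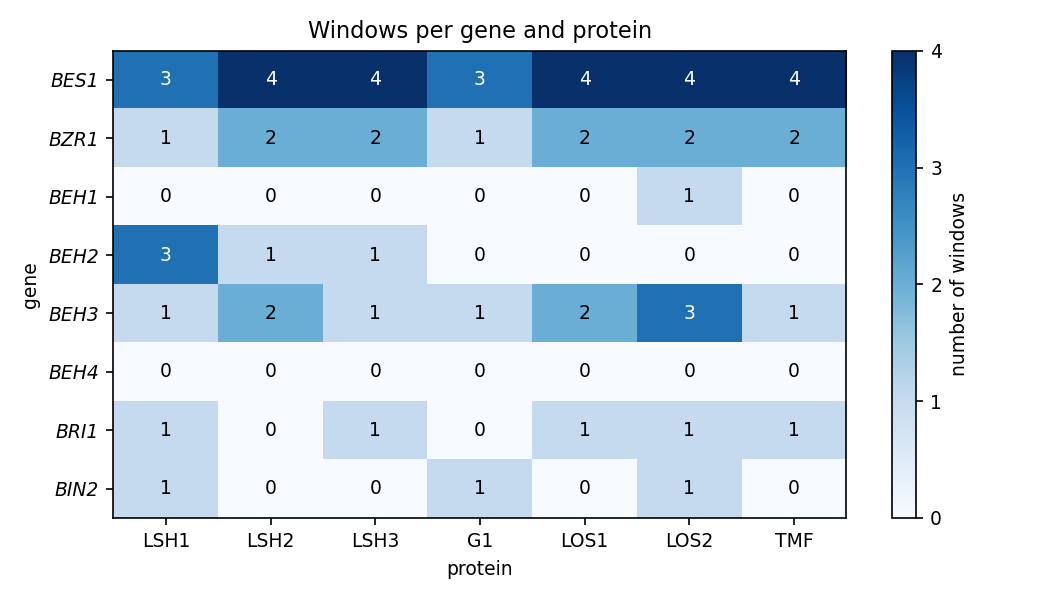
Number of windows of each protein (columns) in each gene or within 2000 bp of it (rows, 8 genes); the shade and the printed number both give the count. BES1 has 3 or 4 windows of every protein, BEH2 has windows of LSH1, LSH2 and LSH3 alone, and BEH4 has none.

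Each protein reached between 4 and 6 of the 8 genes. LSH1 had windows at 6 of the 8 genes, against 53.3% of all protein-coding genes. LSH2 had windows at 4 of 8 (67.9% of all) and LSH3 at 5 of 8 (59.7% of all). For the rice protein G1 the count was 4 of 8 (32.7% of all). LOS1 reached 4 of 8 (53.6% of all), LOS2 6 of 8 (77.6% of all) and TMF 4 of 8 (52.8% of all). With 8 genes, 1 gene more or less moves such a share by more than most of these gaps, and the differences were not tested. As a part of its own list, G1 put 6 of 6902 windows at the 8 genes (0.0869%) and LSH1 10 of 13758 (0.0727%). LOS1 put 9 of 14053 there (0.064%), TMF 8 of 13667 (0.0585%), LSH3 9 of 17263 (0.0521%), LSH2 9 of 21486 (0.0419%) and LOS2 12 of 29555 (0.0406%). The 8 genes with their flanks make up 0.047% of the chromosome length up to the last windows. The longest lists, LSH2 and LOS2, lay below that figure and the other 5 above it, and these values include BES1, for which the genes were chosen.

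BES1 (AT1G19350) encodes a transcription factor of the brassinosteroid response. It held 3 windows of LSH1, 4 of LSH2, 4 of LSH3, 3 of G1, 4 of LOS1, 4 of LOS2 and 4 of TMF. These 26 windows fell into 4 narrow stacks with 1 window of a protein in each. Positions below are those of the deposited windows, counted from 1, with a genome build that the labels and files do not name. The first region, chr1:6686978-6687207, holds all 7 proteins. The second, chr1:6688167-6688376, holds LSH2, LSH3, LOS1, LOS2 and TMF and lacks LSH1 and G1. Exactly this set is held by 2881 regions (7.23%) of the series, and the set of all 7 by 3126 (7.84%). The third, chr1:6689590-6689848, and the fourth, chr1:6690767-6690984, again hold all 7. The 3 regions of all 7 proteins are the feature for which BES1 was picked: 55 protein-coding genes (0.2%) have 3 or more, and 19 (0.112%) of the 16892 whose gene with flanks is within 20% of the length at BES1.

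The 4 regions lie in different surroundings, and only 1 of the 3 shared by all proteins is in BES1 alone. The third region is inside BES1, with its middle 1256 bp from the lower-coordinate end of the gene and 1497 bp from the other. No other protein-coding gene covers it. The fourth region lies 344 bp from the upper end, where the bodies of BES1 and of RRA3 (AT1G19360), an arabinosyltransferase gene, overlap. The first region lies 1380 bp outside BES1, and the window centres there are inside the body of the neighbour AT1G19340. The second region lies between genes, 190 bp outside the lower end of BES1, and BES1 is the nearest gene. The gene table used has no strand, so which end is the start of transcription is not given here. When windows with a centre in the body of another protein-coding gene were left out, an alternative added after seeing the data, BES1 had 12 windows in 2 regions, 1 of them of all 7 proteins.

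**Figure D2:**
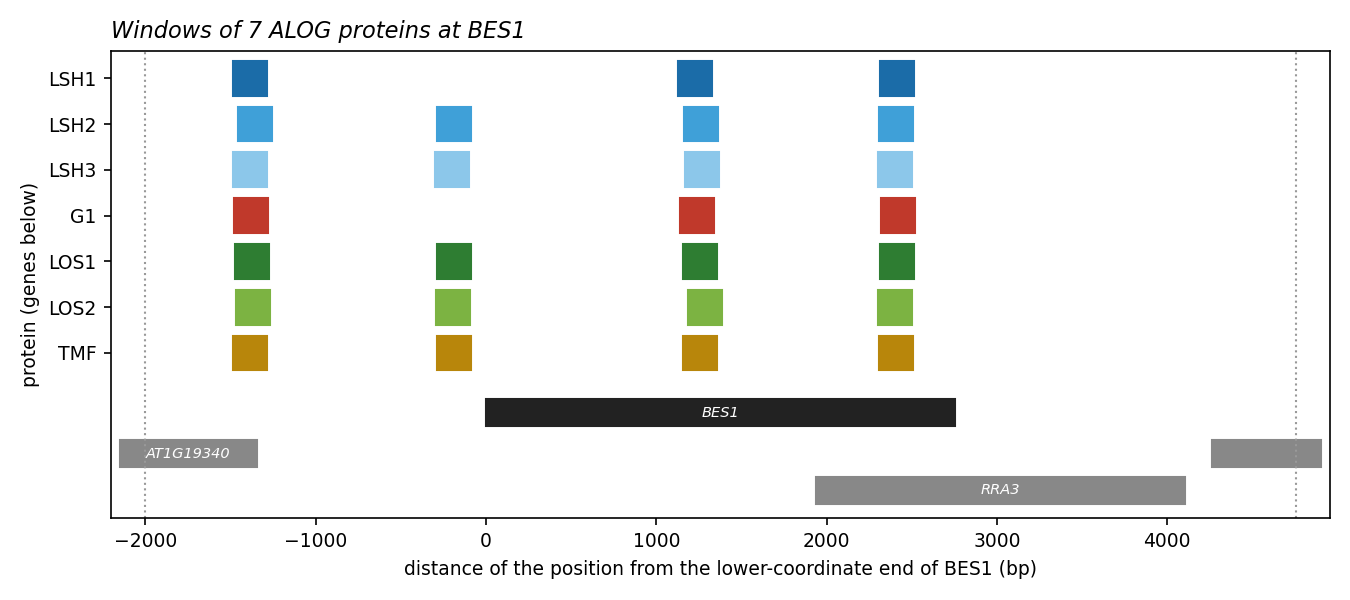
Each coloured bar is a 200 bp window of the protein named on the left, drawn at its distance in bp from the lower-coordinate end of BES1; black and grey bars below are BES1 and other protein-coding genes, and dotted lines mark the 2000 bp limits. The windows line up in 4 columns, of which the column 190 bp outside the gene lacks LSH1 and G1.

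Neighbouring genes therefore count the same windows. RRA3 held 17 windows in 3 regions, 2 of them regions of all 7 proteins, and AT1G19340 held 15 windows in 5 regions, 1 of them of all 7. These counts include the windows also counted at BES1. Just beyond the 2000 bp limit on the upper side of BES1, at 2112 to 2142 bp, lay windows of LSH2, LOS2 and LSH3, which were not counted.

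Within each BES1 region the windows of different proteins had nearly the same position. In the first region the 7 centres spanned 30 bp, with LSH3 lowest at chr1:6686978-6687177 and LSH2 highest at chr1:6687008-6687207. In the second the 5 centres spanned 10 bp, from LSH3 to LOS1. The third region was the widest at 59 bp, from LSH1 at chr1:6689590-6689789 to LOS2 at chr1:6689649-6689848. In the fourth the span was 18 bp, from LSH3 and LOS2, which share 1 position, to G1. No protein lay at the same edge in all 4 regions. Among the 2927 regions in the series that hold exactly 1 window of each of the 7 proteins, the median span was 22.0 bp, with quartiles of 13.0 and 39.0 bp. A span of at most 18 bp was found in 41.2% of them, at most 30 bp in 64.9% and at most 59 bp in 87.5%, so the fourth region was tighter than the median and the third wider than the upper quartile. For regions like the second, of 5 proteins without LSH1 and G1, the median span was 19.0 bp and 18.2% were at most as wide as at BES1.

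The middles of successive BES1 regions were 1190, 1446 and 1153 bp apart. Counting only the regions of all 7 proteins, the spacings at BES1 were 2636 and 1153 bp. In the series as a whole, successive regions of all 7 proteins had a median spacing of 23922.5 bp, and 9.55% of 3121 spacings were under 3000 bp. Per kb of gene and flanks BES1 held 3.85 windows, against a median of 0.97 for genes of like length. Of the 16892 genes of like length, 117 (0.693%) held at least 26 windows, and their median was 6.0, with quartiles of 2 and 11. BES1 was picked for holding several regions of all 7 proteins, so its short spacings and high window count follow from that choice.

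**Figure D3:**
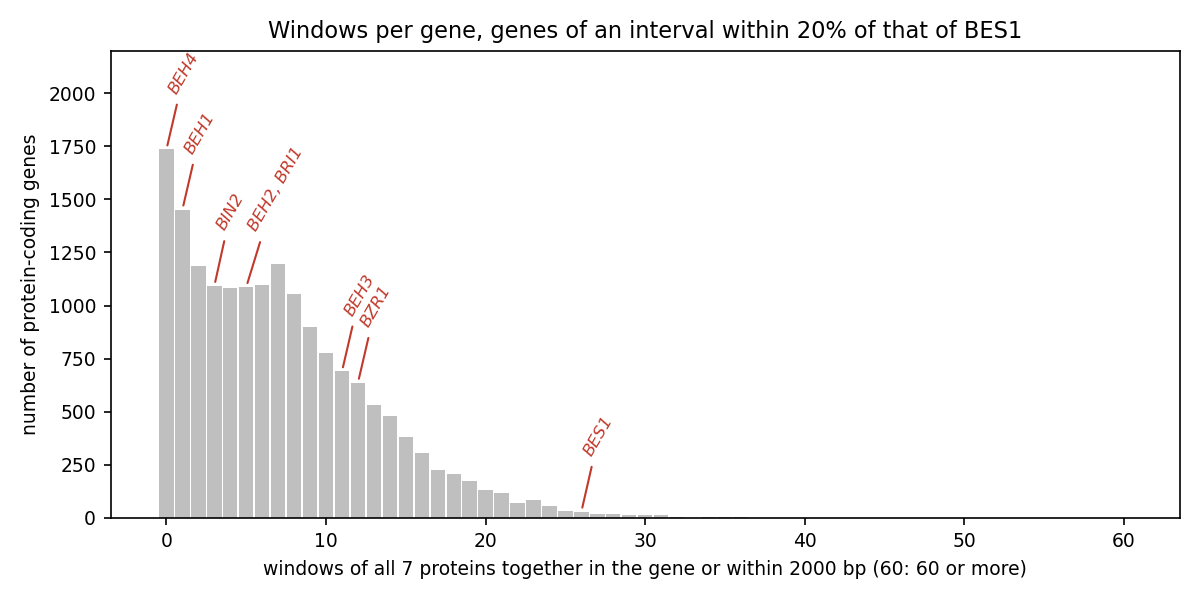
Grey bars give the number of protein-coding genes (y axis) by their count of windows of all 7 proteins together (x axis), for the 16892 genes whose gene with flanks is within 20% of the length at BES1; red labels mark the counts of the 8 brassinosteroid genes. BES1, with 26, is in the thin right tail, and the other 7 lie between 0 and 12. BRI1 and BIN2 are longer than this range and are marked for their counts only.

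Few genes had the same profile over the 7 lists as BES1. The likeness used was the Euclidean distance between the 7 window counts, over 27443 other protein-coding genes. CAK4 (AT1G66750), a CDK-activating kinase, was the single gene at distance 0, with the same count of every protein. Its 26 windows lay in 4 regions, 3 of all 7 proteins and 1 of LSH2, LSH3, LOS1, LOS2 and TMF. Equal counts in 4 regions largely fix that make-up, so it is not a further likeness. The gene length of CAK4, 2737 bp, is close to the 2754 bp of BES1. At CAK4 only 1 of the regions of all 7, chr1:24896255-24896463, is in the gene body. AT3G08020 and ABO1 (AT5G13680), an Elongator subunit, followed at distance 1.0, and AT5G08510 and CZF1 (AT2G40140), a zinc finger gene, at 1.41. CZF1 also had 3 regions of all 7 proteins, and AT3G08020, ABO1 and AT5G08510 had 2 each. The distance of 1.41 was shared by 9 genes, of which those 2 are the closest to BES1 in length, and the 9 had 0 to 3 regions of all 7 proteins.

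BZR1 (AT1G75080), which acts beside BES1 in the hormone response, had windows of every protein but no region that all 7 share. It held 1 window of LSH1, 2 of LSH2, 2 of LSH3, 1 of G1, 2 of LOS1, 2 of LOS2 and 2 of TMF, 12 in all, in 5 regions. LSH1, LSH2, LSH3 and TMF were together at chr1:28185139-28185388, 244 bp outside the lower end of the gene and between genes. LSH3, LOS1, LOS2 and TMF were together at chr1:28187518-28187721, 455 bp inside the upper end, with centres within 4 bp of each other. That region is also in the body of AT1G75090, as is a window of LOS2 alone at chr1:28187926-28188125. G1 and LOS1 were together at the far lower edge, chr1:28183420-28183663, where the nearest gene is AT1G75060 and the G1 centre lies 2 bp from it. A window of LSH2 alone, chr1:28189633-28189832, was in the body of AT1G75090 outside BZR1. Just beyond the limit, at 2082 to 2084 bp, lay a stack of LSH1, LSH2 and LSH3 windows that was not counted. Regions held by G1 and LOS1 and no other protein number 22 in the whole series. Every window in the body of BZR1 lies where AT1G75090 overlaps it, so none is in BZR1 alone. The count of 12 windows or more was reached by 3475 (19.8%) of 17509 genes of like length.

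BES1 and BZR1 have some regions at similar distances from their ends by coordinate. No strand was used, so the lower end of BES1 and that of BZR1 may be opposite ends of transcription. How often other pairs of genes match in this way was not computed. Each gene has a region just outside the lower-coordinate end, at 190 and 244 bp. Each also has one near the upper end, at 344 and 455 bp inside, where a neighbouring gene overlaps. BZR1 has a further region in that overlap, of LOS2 alone, 50 bp inside the upper end. The proteins differ: LSH1 is in the outer region at BZR1 and not in the one at BES1, while LOS1 and LOS2 are in that of BES1 and not in that of BZR1. LSH2, LSH3 and TMF are in both outer regions. The region 344 bp inside BES1 holds all 7 proteins, but that 455 bp inside BZR1 holds only LSH3, LOS1, LOS2 and TMF. A counterpart of the region in the middle of BES1 was not found in BZR1. No sequence was used, so whether these regions share bases was not tested.

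BEH3 (AT4G18890) held 1 window of LSH1, 2 of LSH2, 1 of LSH3, 1 of G1, 2 of LOS1, 3 of LOS2 and 1 of TMF. All 11 are in its flanks and between protein-coding genes, with none in the gene. A region of all 7 proteins, chr4:10351242-10351485, lies 1017 bp outside the lower end, and BEH3 is the nearest gene. Its 7 centres span 44 bp, a span reached or undercut by 79.7% of such regions. LSH2, LOS1 and LOS2 share chr4:10355717-10355923, 265 bp outside the upper end, with centres within 7 bp. LOS2 has a further window of its own at chr4:10350540-10350739, which is nearer to HSF A4A, a heat shock factor gene. Of 14851 genes of like length, 27.8% held at least 11 windows.

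BEH2 (AT4G36780) was reached by the Arabidopsis proteins and by no other. It held 3 windows of LSH1, 1 of LSH2 and 1 of LSH3, with none of G1, LOS1, LOS2 or TMF. The 3 LSH1 windows stand alone, each in a region of no other list. One, chr4:17333266-17333465, is in the gene body, one, chr4:17334382-17334581, lies 126 bp outside the upper end, and one, chr4:17330259-17330458, is in the overlapping bodies of APP1 and AT4G36770. LSH2 and LSH3 share chr4:17332603-17332805 in the body of BEH2, with centres 3 bp apart. LSH1 thus has no region in common with LSH2 and LSH3 at this gene. Regions of LSH1 alone number 1984 in the series and regions of LSH2 and LSH3 alone 895. How many other genes have windows of LSH proteins only was not computed, so whether this pattern is unusual is not known.

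The remaining family members held almost nothing. BEH1 (AT3G50750) had a single window, of LOS2, at chr3:18861979-18862178 in its body, 329 bp from the lower end. LOS2 has the longest list, with 11277 regions that no other protein shares. At least 1 window was found at 84.2% of 17802 genes of like length. BEH4 (AT1G78700) had no window of any protein, which was the case for 12.0% of 18219 genes of like length. Just beyond its limit, windows of LSH3, LOS2 and G1 lay 2099 to 2180 bp from the gene.

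**Figure D4:**
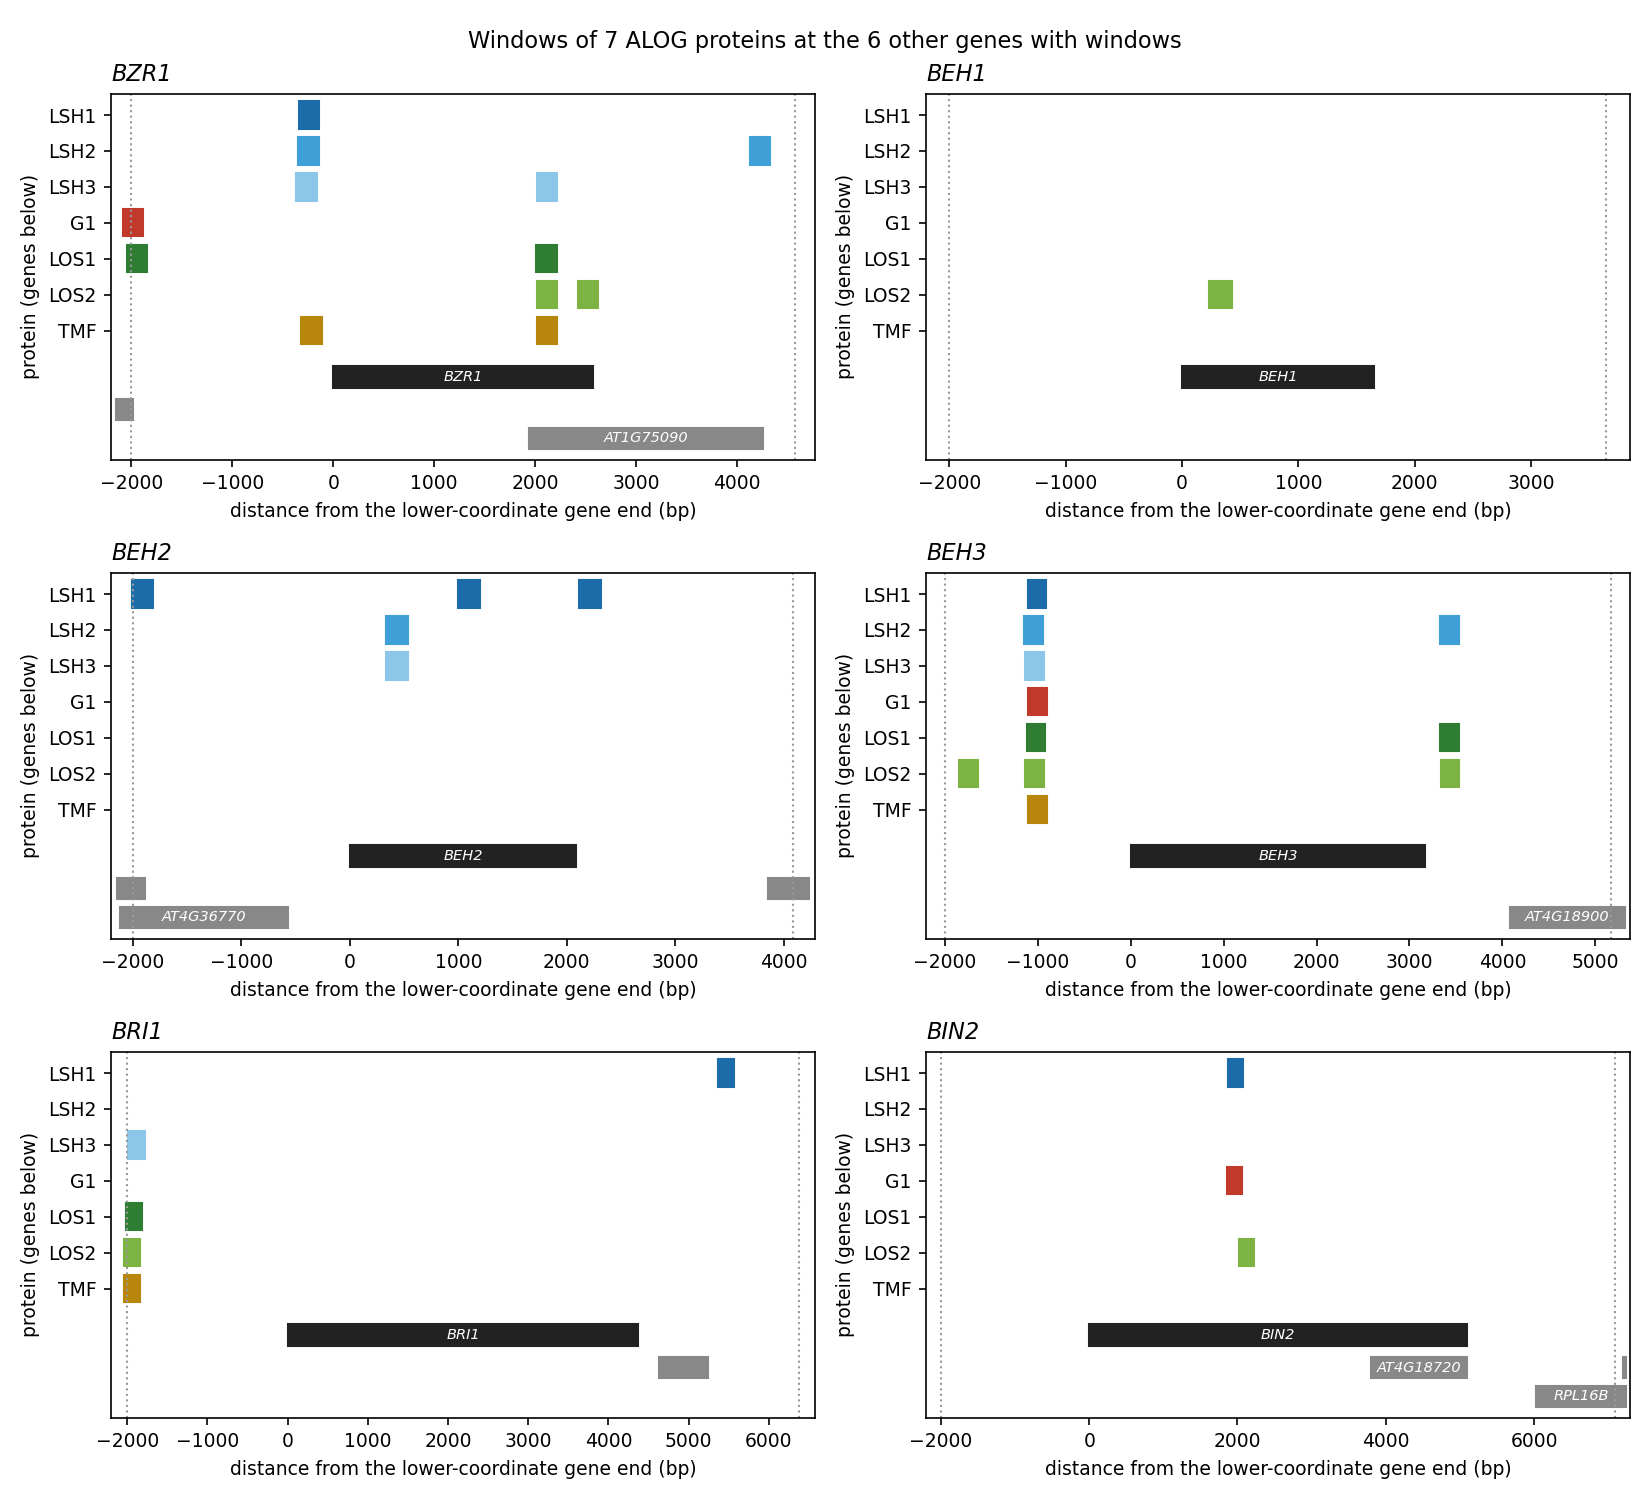
Windows of the 7 proteins at BZR1, BEH1, BEH2, BEH3, BRI1 and BIN2, drawn as 200 bp bars at their distance in bp from the lower-coordinate end of each gene; black bars are the named gene, grey bars other protein-coding genes, and dotted lines the 2000 bp limits. BEH3 has 1 full column of 7 proteins, 1017 bp outside the gene, and the bodies of BEH3 and BRI1 are empty.

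The gene of the hormone receptor, BRI1 (AT4G39400), had no window in its body of 4375 bp. It held 1 window each of LSH1, LSH3, LOS1, LOS2 and TMF in its flanks, and none of LSH2 or G1. LSH3, LOS1, LOS2 and TMF shared chr4:18322417-18322672, with centres 1885 to 1941 bp outside the lower end, and LSH1 was alone at chr4:18329830-18330029, beyond the neighbouring gene PLS. The same combination of 4 proteins was seen in the body of BZR1, and 288 regions (0.723%) of the series have it. The 2000 bp limit mattered here: at 2262 to 2265 bp, just outside it, lay a further stack of windows at nearly identical positions, of TMF, LSH2, LSH3, LOS1 and LOS2. With 5 windows BRI1 was below the median of 8.0 for genes of like length, and 73.2% of 7970 such genes held at least as many.

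BIN2 (AT4G18710), the kinase that restrains BES1 and BZR1, had 1 window each of LSH1, G1 and LOS2, all inside the gene, and none of LSH2, LSH3, LOS1 or TMF. G1 at chr4:10298003-10298202 and LSH1 at chr4:10298010-10298209 nearly coincide. LOS2 at chr4:10298156-10298355 overlaps them at its edge only, and the 3 centres span 153 bp, the widest span of the 20 regions. Requiring an overlap of 100 bp separates LOS2 from the other two. Regions with exactly LSH1, G1 and LOS2 number 33 in the series. With a body of 5091 bp BIN2 is the longest of the 8 genes, and 86.9% of 5129 genes of like length held at least its 3 windows.

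Across the 20 regions, 4 (20%) held all 7 proteins, against 7.84% of all regions, and 3 of the 4 are those at BES1. BES1 was chosen for these 3, so the 20% follows from the choice. At the other 7 genes, 1 of 16 regions held all 7 proteins, that at BEH3. Regions of a single list made up 8 (40%) of the 20, against 40.4% of the series. No region at the 8 genes held exactly 6 proteins, against 8.61% of the series. Among 20 regions such a share amounts to few, and the gap was not tested. Of the 8 single-list regions, 4 were of LSH1, 3 of LOS2 and 1 of LSH2. BEH2 held 3 of the 4 of LSH1. In the whole series, 16094 regions were of a single list, with 1984 of LSH1, 11277 of LOS2 and 1323 of LSH2. TMF had 8 regions at the 8 genes and LSH3 was present in every one of them, which is 8 of the 9 regions of LSH3. LOS1 and LOS2 shared 8 regions, out of 9 for LOS1 and 12 for LOS2. LSH2 and LSH3 shared 7 of 9 each. G1 and LSH1 shared 5, out of 6 for G1 and 10 for LSH1. LSH1 and LOS1 shared 4, out of 10 for LSH1 and 9 for LOS1, the smallest part of the shorter set among all pairs. The 4 regions of all 7 proteins count as shared in every pair, and 3 of them are those at BES1. Shares of each pair over the whole series were not computed, so these counts do not set the 8 genes apart. The lists differ in length, which limits how much of a long list can be shared with a short one.

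Of the 63 windows, 26 (41.3%) had their centre in the body of the gene they were assigned to, against 43.7% of all pairs of a protein-coding gene and a window. In 12 of the 26 another protein-coding gene covered the same place. A further 9 windows were in the body of another protein-coding gene only, and 28 (44.4%) were between protein-coding genes. All windows of BEH3 and BRI1 were between protein-coding genes, and BES1 held 14 of the 26 in a body. BEH1 and BIN2 had all their windows in their own bodies.

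The rest of the pathway was described with 54 further genes in 5 lists, and windows of all 7 proteins were found at 18 of them, against 22.6% of all protein-coding genes. A window of any protein was found at 51 of 54, against 86.6%. These genes are longer than most, with a median of 3382.5 bp against 2078.0 bp, and longer genes have more room for windows. Of the 54, 35 held more windows than the median gene of like length.

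Among receptors and co-receptors, 8 of 8 had a window, against 86.6% of all protein-coding genes, and 1 had all 7 proteins, against 22.6%. More windows than the median gene of like length were found at 4 of the 8. The gene with all 7 was SERK1, a co-receptor kinase, with 16 windows, 4 each of LSH1, LSH2 and LSH3 and 1 each of G1, LOS1, LOS2 and TMF. SERK2, a close relative of SERK1, had 13 windows, and BAK1, the main co-receptor, and BKI1, an inhibitor that binds BRI1, had 8 each, all 3 without G1. G1 reached 1 of the 8 genes in this list, against 32.7% of all protein-coding genes. BRI1 had 5 windows, and its homologs BRL1, BRL2 and BRL3 had 2, 8 and 2. None of the 8 had a region of all 7 proteins, against 16.8% of all protein-coding genes. With 8 genes, this gap was not tested.

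The kinases and phosphatases that carry the signal from BRI1 to BIN2 had a median of 11 windows, and 5 of the 8 genes were above the median gene of like length. All 8 had a window, against 86.6% of all protein-coding genes, and 4 had all 7 proteins, against 22.6%. BSL1, a phosphatase of the BSU1 family, had 23 windows and 2 regions of all 7 proteins, its relatives BSL2 and BSL3 had 16 and 14, close to the medians of 14.0 and 13.0 for genes of their length, and the cytoplasmic kinase BSK3 had 15. CDG1, a kinase that acts beside the BSK proteins, had 2.

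BIN2, with 3 windows, was below the median of 14.0 windows of the GSK3-like kinases related to it. Windows of all 7 proteins were found at 5 of these 9, against 22.6% of all protein-coding genes, and 6 of the 9 were above the median gene of like length. BIL2 (AT1G06390) and BIL1 (AT2G30980), the kinases most like BIN2, had 31 and 25 windows, each in 7 regions of which 1 was of all 7 proteins. At BIL2 the windows were 5 of LSH1, 6 of LSH2, 6 of LSH3, 4 of G1, 3 of LOS1, 6 of LOS2 and 1 of TMF. A count of 31 or more was found at 0.616% of genes of like length. BIL2 ranks first in its list by these counts and is named for that, so the share is no test. SK11 (AT5G26751) had 15 windows and SK42 (AT1G57870) 14, while SK41 (AT1G09840) had 2, both of LOS2.

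Partners and downstream factors included the 3 BIM genes, which encode bHLH proteins that bind DNA together with BES1. BIM3 had 31 windows in 8 regions, BIM2 21 in 6 and BIM1 14 in 3, each with all 7 proteins and with 1 region that all 7 share. Of genes of like length to BIM3, 0.109% had at least 31 windows. BIM3 is named for ranking first in its list by these counts, so this share is a description and not a test. ELF6, a histone demethylase that interacts with BES1, had 19 windows of all 7 proteins. All 16 genes in this list had a window, against 86.6% of all protein-coding genes, and 5 had all 7 proteins, against 22.6%. Of the 16, 13 were above the median gene of like length. PRE1, a small HLH protein gene induced by the hormone, had 1 window, of LOS2.

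Of the biosynthesis and turnover genes, 10 of 13 had a window, against 86.6% of all protein-coding genes, and 3 had all 7 proteins, against 22.6%, so both counts were near the shares over all genes. DWF1, BR6OX2 and BAS1 had no window. The 3 genes with all 7 proteins were the biosynthetic genes ROT3, with 15 windows, CYP90D1, with 10, and STE1, with 8. DWF5, a sterol reductase gene, had 10 windows without G1. CPD, a cytochrome P450 gene repressed by the BES1 and BZR1 proteins, had 13 windows, of which 2 were of LSH1, 5 of LSH2, 4 of LSH3 and 2 of LOS2, with none of G1, LOS1 or TMF. DWF4, a biosynthetic gene repressed in the same way, had 1 window, of LOS2.

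**Figure D5:**
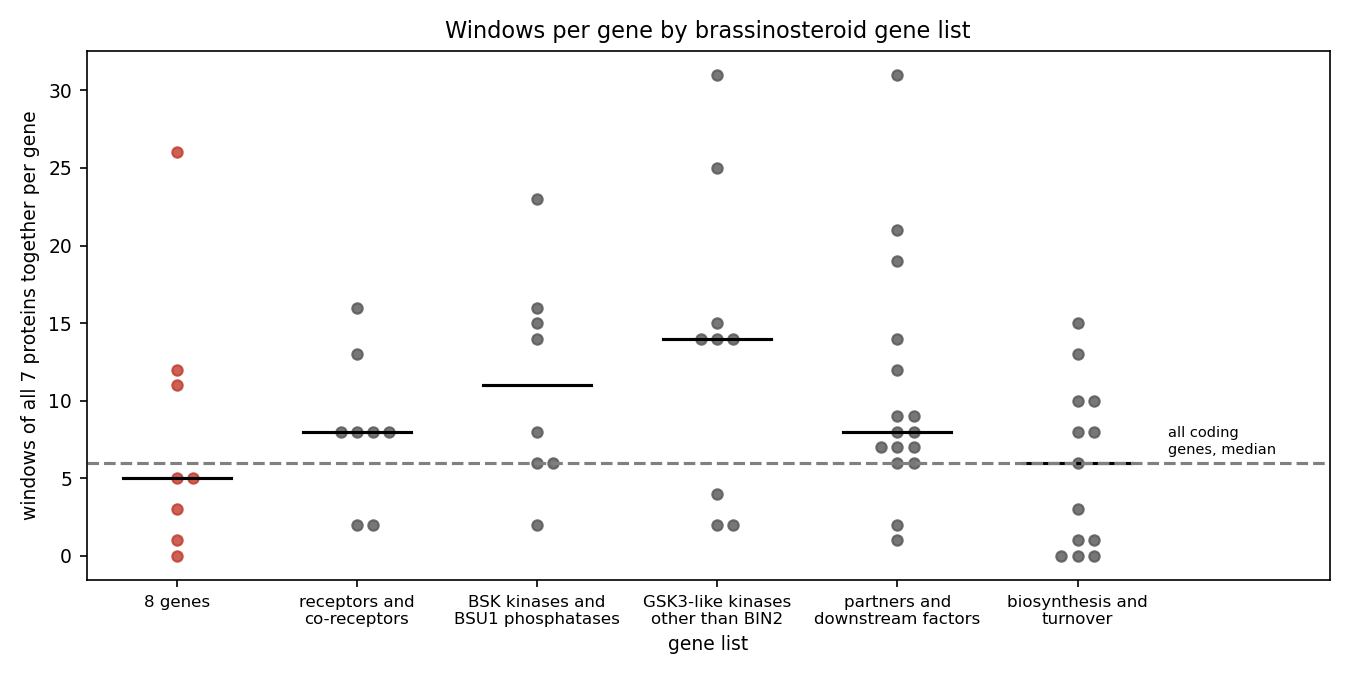
Each point is a gene and the y axis gives its windows of all 7 proteins together; the 8 brassinosteroid genes are in red on the left and the 5 lists of other pathway genes in grey, with a black line at each median. The dashed line is the median of all protein-coding genes, 6.0. The medians run from 5.0 for the 8 genes to 14.0 for the GSK3-like kinases other than BIN2.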

How the data were processed

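The deposited lists hold window coordinates only, per the files' contents. Per the submitters' processing notes, the authors used Bowtie2, SAMtools and MACS2; their versions, settings and build were not given in the sources used here. Samples were grouped by title, with 1 list per protein. Gene positions came from a RefSeq table of TAIR10.1, and all 62 genes matched. The share of window centres in protein-coding genes was 71.1% as deposited and 67.4% after shifts of 1000 bp either way.

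Windows overlapping by at least 1 bp were joined into regions across lists. Genes of like length have a gene with flanks within 20% of the length in question. Alternatives covered the flank length, the overlap required, the assignment of windows and leaving out each list. Assignment and joining were tested on simulated windows. Python 3.11.15, numpy 2.4.6, pandas 2.3.3 and matplotlib 3.10.9 were used. The members and gene lists were chosen with earlier results of these data known. All 8 members are named; per pathway list the text names the 4 genes with windows of the most proteins, then of the most windows, and genes with none. BRL1, BRL2, BRL3, CDG1, SK41, PRE1, CPD and DWF4 were named after their values were seen. Planned motif and protein comparisons were not run, as no sequence was used here, nor was the interval upstream of gene starts, as no strand was used.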

Additional observations from a re-analysis of the deposited data

How the results depend on the processing

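Of 36 values recomputed with other intervals, assignments or overlaps, 25 were within 1.5 times those reported. With gene bodies alone, BES1 had 14 windows in 2 regions, and its regions of all 7 proteins fell from 3 to 2. The 8 genes then had 26 windows in 8 regions, and 1 gene had windows of all 7 proteins. With flanks of 1000 bp BES1 also had 2 regions of all 7 proteins. The 8 genes had 39 windows in 12 regions at that setting, and again 1 gene had windows of all 7 proteins. Both settings shorten the intervals by construction. Leaving out windows in the body of another protein-coding gene, an alternative added after seeing the data, gave BES1 12 windows in 2 regions, 1 of them of all 7 proteins. Leaving out any 1 list, with the remaining lists required, gave 3 such regions at BES1 and 3 genes with windows of all proteins; neither count can fall when a list is dropped, so this says nothing about stability. No paired analysis was possible because each protein has 1 list. The lists hold no depth or peak height, so a weakly retained site cannot be told apart from one that is absent.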
